A study of Homo sapiens with 8 samples.

Results

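The insulin-like growth factor (IGF) genes followed here are IGF2, the receptors IGF1R and IGF2R, and the binding protein genes IGFBP1 to IGFBP7. All probes carrying these gene symbols were taken from the processed table, which gave 14 of 47319 probes for 10 of 20044 named genes. They were followed on 8 Illumina BeadChip arrays of 2 established human liver cancer cell lines with stable short hairpin RNA (shRNA) against SMARCB1, whose protein belongs to the core of SWI/SNF chromatin remodellers. SK-Hep1 grew out of a liver adenocarcinoma and shows endothelial traits, whereas Huh7 is a well differentiated hepatoma line. The groups were SK-Hep1 SMARCB1 knockdown (replicates 11 and 12), SK-Hep1 control (1 and 2), Huh7 SMARCB1 knockdown (3 and 4) and Huh7 control (1 and 2). Cells of all groups had been selected with puromycin at 1.25 µg/mL, and 0.55 µg of total RNA was labelled per array. The Huh7 control titles name GFP and the SK-Hep1 control titles do not, and whether the control construct was the same is not given. Both Huh7 knockdown titles, and 1 SK-Hep1 knockdown title, carry the number 11, and whether 11 and 12 are different hairpins is not given. Nothing says that the 2 arrays of a group came from separate cultures, so the p-values reflect the spread of the arrays alone, possibly a technical one.

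IGF2 is a fetal growth factor made by many liver tumours. It signals through IGF1R, a receptor tyrosine kinase, and also through an isoform of the insulin receptor, whereas IGF2R, the large mannose-6-phosphate receptor, takes IGF2 up for degradation in lysosomes and does not signal as a kinase. IGFBP1 to IGFBP6 bind IGFs with high affinity outside the cell and hold them away from the receptors or release them after proteolysis, and IGFBP7 binds IGFs only weakly.

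Values are log2 signals as deposited, differences are knockdown minus control, and each group has n = 2 arrays. Tests are from limma over 12411 genes, each represented by its brightest probe, with Benjamini-Hochberg adjusted p and a threshold of 0.05. A probe was kept when its mean over the 8 arrays exceeded 7.003, the 95th percentile of probes for genes that liver cells do not use. All 10 genes and 13 of the 14 probes passed. IGF1R passed by 0.0138 and would not have passed on its arrays other than Huh7 knockdown (mean 6.95), so it was tested only because of the group in which it was highest. The IGF2 probe ILMN_2413956 passed by 0.0859, and the third IGF2 probe, ILMN_2298035, lay at -0.589 from the threshold.

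Each knockdown array had less SMARCB1 signal than both controls of its line. SMARCB1 differed by -1.16 ± 0.107 (SE) between the SK-Hep1 groups (adjusted p = 0.000113). Between the Huh7 groups the difference was -1.65 ± 0.107 (adjusted p = 3.48e-06). The lines could not be checked against their markers or compared in level, because the deposited table holds almost no difference between them. The SD over genes of the mean SK-Hep1 minus the mean Huh7 value was 0.029, and the 10 genes differed by at most 0.0976. ALB, the hepatocyte marker, averaged 11.30 over the SK-Hep1 arrays and 11.59 over the Huh7 arrays. What removed the line difference, and whether the scale of single genes was changed with it, is not given, and the sizes of the differences depend on that. A value below the brightness threshold in 1 line may therefore not be background in that line. Folds given as "at least" hold only on the deposited scale.

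In SK-Hep1, the binding protein genes IGFBP5, IGFBP4 and IGFBP7 rose after SMARCB1 knockdown and IGFBP2 fell. Each of these 4 changes was larger in size than those of all but 0.967% of genes or fewer. IGF2R rose slightly, and IGF2 itself was at the same level in both groups. In all, 4 of the 10 genes rose and 1 fell, against 8.31% of all genes higher and 8.54% lower (16.8% in either direction). The arrays of the groups did not overlap for 5 genes that were higher after knockdown (26% of all genes) and 1 that was lower (28.7%), against 54.6% of all genes either way. The median difference of the 10 genes was 0.18 and that of all genes -0.0095.

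IGFBP5 encodes a binding protein that attaches to extracellular matrix. It read 9.41 and 9.44 on the SK-Hep1 knockdown arrays, against 8.09 and 8.11 on the control arrays. The groups stood far apart, and the 2 arrays of each group differed by little. The difference was 1.32 ± 0.0638 (2.5-fold, adjusted p = 2.36e-06), and only 0.193% of all genes changed more in SK-Hep1. Its second probe, ILMN_2132982, which is dimmer, read 7.99 and 7.87 after knockdown, against 6.78 and 6.79 in controls. These control values lie below the brightness threshold, so the measured difference of 1.15 is read as at least 1.90-fold higher on the deposited scale. With every kept probe tested, both IGFBP5 probes passed, against 12.4% of all kept probes.

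IGFBP4, which encodes a binding protein that mainly inhibits IGF action, read 11.29 and 11.53 on the SK-Hep1 knockdown arrays, against 10.58 and 10.49 on the control arrays. The difference was 0.88 ± 0.085 (1.83-fold, adjusted p = 0.000157). IGFBP7, a secreted protein prominent in endothelial cells, read 8.47 and 8.40 on the knockdown arrays, against 7.63 and 7.67 on the controls. Its difference was 0.78 ± 0.0672 (1.72-fold, adjusted p = 7.69e-05). In both genes each knockdown array was above each control array, and few genes changed more (0.757% for IGFBP4 and 0.943% for IGFBP7). Of 7 endothelial markers on the array 2 were tested, and 1 rose in SK-Hep1. The log2 of their summed signal was 9.04 to 9.06 after knockdown and 8.72 to 8.82 in controls. ENG, which encodes endoglin, read 8.66 and 8.63 on the knockdown arrays, against 8.11 and 8.25 on the controls, while PECAM1 read 7.004 and 7.03 after knockdown, against 7.17 and 7.20 in controls, and did not pass. CDH5, VWF, KDR, TEK and TIE1 were below the brightness threshold. CD68, the only blood cell marker above the threshold, was also higher after knockdown in SK-Hep1 (11.24 to 11.29, against 10.63 to 10.69). Some hepatocyte markers moved as well, with a median of 0.0023 over their list. Of 9 tested, 2 rose in SK-Hep1 (AFP by 0.48 and SERPINA1 by 0.58), and the log2 of the summed signal was 13.91 to 13.93 after knockdown and 13.72 to 13.73 in controls. Of 6 fibroblast markers 1 fell (COL3A1, -0.46), with a summed signal of 11.39 to 11.89 after knockdown and 11.96 to 12.01 in controls. LUM, the brightest of these markers, read 10.32 and 11.19 after knockdown, against 11.35 and 11.26 in controls, and gave no call. The low end of the summed signal came from the first of these arrays. Markers moved in Huh7 too, where 1 of 9 hepatocyte markers rose and 3 fell, and 1 of 6 fibroblast markers rose and 1 fell. Of the 2 endothelial markers 0 rose and 1 fell there. CD68 gave no call on its brightest probe (-0.15), while its second probe was at -0.52 (adjusted p = 0.00206 among all kept probes). The dimmest CD68 probe did not pass in Huh7. Among all genes 8.31% rose and 8.54% fell in SK-Hep1, and 19.4% rose and 19.5% fell in Huh7. The part of these marker lists in the changes of the IGF genes was not tested.

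IGFBP2, whose protein is abundant in the fetal liver and in many tumours, was the only gene of the 10 to fall in SK-Hep1. Its values were 9.22 and 9.18 on the knockdown arrays, against 10.11 and 9.85 on the control arrays. The difference was -0.78 ± 0.0905 (1.72-fold lower, adjusted p = 0.000449), and 0.967% of genes changed more. IGFBP2 and IGFBP5 are direct neighbours on chromosome 2, with 0 annotated genes between them in the RefSeq gene table (GRCh38.p14), and in SK-Hep1 they moved in opposite directions.

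Among the receptors, IGF2R read 11.59 and 11.68 on the SK-Hep1 knockdown arrays, against 11.41 and 11.39 on the control arrays. The groups did not overlap, and the difference was 0.23 ± 0.0696 (adjusted p = 0.0449). This call was lost without any 1 array other than knockdown replicate 11 (adjusted p = 0.0666 to 0.135) and in a fit of the 4 SK-Hep1 arrays by themselves (adjusted p = 0.138). IGF1R, with values of 7.21 and 6.91 after knockdown and 7.04 and 6.89 in controls, gave no call (0.09, 95% interval -0.15 to 0.34, adjusted p = 0.605), and its direction turned without knockdown replicate 11 (-0.06).

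IGF2 was dim on the deposited scale in SK-Hep1, at 7.34 and 7.35 after knockdown and 7.28 and 7.41 in controls. The control values enclosed the knockdown values, and the difference was -0.0050 (95% interval -0.19 to 0.18, adjusted p = 0.975). IGFBP3, the main IGF carrier of adult serum, was the brightest of the 10 genes. It read 13.13 and 13.42 in SK-Hep1 knockdown cells and 13.10 and 13.04 in controls, which did not pass the threshold (0.20, 95% interval -0.00013 to 0.41, adjusted p = 0.154). The value rested on 1 array, being 0.35 without knockdown replicate 11 (adjusted p = 0.0112) and 0.06 without replicate 12 (adjusted p = 0.65). The second IGFBP3 probe, ILMN_2396875, read 12.71 and 13.03 after knockdown and 12.54 on each control array. Its difference of 0.33 passed among all kept probes (adjusted p = 0.048).

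IGFBP1, a liver-made binding protein that insulin represses, read 8.36 and 8.52 in SK-Hep1 knockdown cells and 8.43 and 8.14 in controls, with overlapping groups (0.16, 95% interval -0.07 to 0.38, adjusted p = 0.31). IGFBP6, which prefers IGF2 over IGF1, read 9.51 and 9.27 after knockdown and 9.50 and 9.48 in controls (-0.10, 95% interval -0.29 to 0.10, adjusted p = 0.478). Its sign turned without knockdown replicate 12 (0.02).

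**Figure D1:**
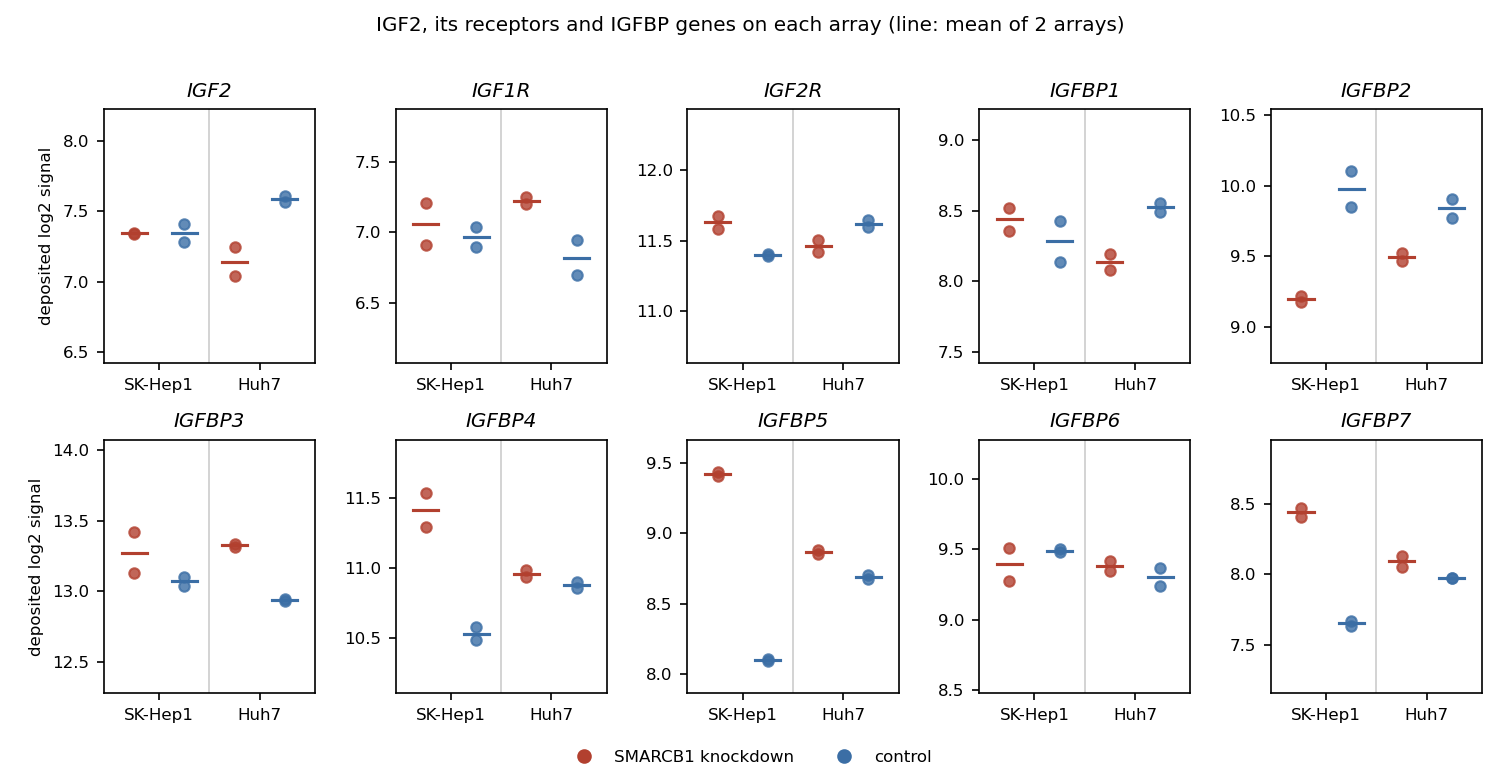
Deposited log2 signal (vertical axes, each spanning the same range) of the brightest probe of each of the 10 genes on every array, with SMARCB1 knockdown in red left of control in blue within each line and a bar at the mean of the 2 arrays. IGFBP5, IGFBP4 and IGFBP7 stand apart in SK-Hep1, where IGFBP5 read 9.41 and 9.44 after knockdown against 8.09 and 8.11 in controls, and IGFBP2 was lower after knockdown in both lines.

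In Huh7, IGF2, IGFBP1 and IGFBP2 fell after SMARCB1 knockdown and IGFBP3 rose, all by 0.45 or less on the log2 scale. IGF1R also passed upward, on a probe that entered the test only through the knockdown group and whose control values lay below the brightness threshold. IGFBP4, IGFBP5, IGFBP7 and IGF2R, the genes that rose in SK-Hep1, gave no call here. IGF1R is therefore not counted as a rise. IGFBP3 alone then rose and 3 genes fell, against 19.4% of all genes higher and 19.5% lower in Huh7 (38.9% in either direction). These calls are close to the rate of all genes. The groups did not overlap for 5 genes higher, IGF1R among them (37.4% of all genes), and 4 lower (37.2%), against 74.7% either way. The median difference was 0.077 for the 10 genes and 0.00061 for all genes.

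IGF2 read 7.25 and 7.04 on the Huh7 knockdown arrays, against 7.57 and 7.61 on the controls. Both knockdown arrays were below both controls, and the difference was -0.45 ± 0.0824 (1.36-fold lower, adjusted p = 0.0021). The second IGF2 probe, ILMN_2413956, read 7.07 and 6.67 after knockdown and 7.24 and 7.42 in controls, a difference of -0.46 that also passed among all kept probes (adjusted p = 0.0218), against 31.5% of all kept probes in Huh7. The third, below the threshold, overlapped between the groups (6.55 and 6.22 after knockdown, 6.45 and 6.43 in controls). All 3 probes lie close to background on the deposited scale, so these folds may be understated.

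Transcripts of the same locus were read beside IGF2. A probe for INS-IGF2, a read-through transcript that shares sequence with IGF2, had a mean of 6.92, below the brightness threshold, and was not tested. It read 6.44 and 6.74 on the Huh7 knockdown arrays, against 7.37 and 7.18 on the controls, which were above the threshold. A second INS-IGF2 probe, also below the threshold, overlapped between the groups (6.44 and 6.20 after knockdown, 6.38 and 6.48 in controls). H19, the non-coding RNA of the same imprinted region, read 6.83 and 6.91 after knockdown, against 7.50 and 7.44 in controls, and fell by 0.60 ± 0.095 (adjusted p = 0.000852). Both H19 knockdown values were below the threshold, which makes H19 at least 1.38-fold lower on the deposited scale. The MIR483 probe, for a microRNA within the IGF2 gene, was below the threshold in all groups, at 6.59 and 6.76 after knockdown and 6.66 and 6.68 in controls. In SK-Hep1 H19 gave no call (0.03, adjusted p = 0.86).

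IGF1R read higher after knockdown, at 7.25 and 7.20 on the Huh7 knockdown arrays, against 6.69 and 6.94 on the controls. The measured difference was 0.41 ± 0.111 (adjusted p = 0.0156). The probe was tested only because of this knockdown group, so its p-value cannot show that IGF1R rose. Both controls were below the threshold, which would give at least 1.17-fold against the threshold itself. That fold rests on the same knockdown values that admitted the probe, so it does not show a rise either. The call was lost without control replicate 1 (0.28), knockdown replicate 3 (0.38) or knockdown replicate 4 (0.43). IGF2R read 11.42 and 11.51 after knockdown and 11.60 and 11.65 in controls. Its difference of -0.16 (95% interval -0.31 to -0.0038) did not pass the threshold (adjusted p = 0.0964), although the groups did not overlap.

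IGFBP3 read 13.33 and 13.32 on the Huh7 knockdown arrays, against 12.95 and 12.93 on the controls, and rose by 0.39 ± 0.0915 (1.31-fold, adjusted p = 0.00762). The second IGFBP3 probe rose by 0.43 (adjusted p = 0.0061 among all kept probes), with 12.86 and 12.89 after knockdown and 12.45 and 12.44 in controls. IGFBP1 read 8.08 and 8.20 after knockdown, against 8.56 and 8.49 in controls, and fell by 0.39 ± 0.101 (adjusted p = 0.0122). IGFBP1 and IGFBP3 are direct neighbours on chromosome 7, with 0 annotated genes between them, and in Huh7 they moved in opposite directions.

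IGFBP2 fell in Huh7 as well, with values of 9.47 and 9.52 after knockdown, against 9.91 and 9.77 in controls (-0.34 ± 0.0905, adjusted p = 0.0128). By brightest probes IGFBP2 alone of the 10 genes was called in the same direction in both lines, against 4.57% of all genes. The second IGFBP3 probe also passed upward in both. The Huh7 calls of IGFBP1 and IGFBP2 were lost without control replicate 1 (adjusted p = 0.0817 and 0.11) or knockdown replicate 3 (adjusted p = 0.0872 and 0.0777). IGF2 and IGFBP3 kept theirs without any 1 of the 8 arrays (adjusted p at most 0.0267 and 0.0499).

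For IGFBP5 the Huh7 values were 8.88 and 8.85 after knockdown and 8.68 and 8.70 in controls. The difference of 0.18 ± 0.0638 missed the threshold (adjusted p = 0.0507), and it passed under 7 other settings (adjusted p = 0.0167 to 0.0474) and missed under the rest (up to 0.702, with the mean of its probes). The dimmer probe gave -0.10, with 7.49 and 7.14 after knockdown and 7.45 and 7.36 in controls, so the 2 IGFBP5 probes disagreed in Huh7. IGFBP7 read 8.05 and 8.13 after knockdown and 7.97 on each control array (0.12, 95% interval -0.03 to 0.27, adjusted p = 0.183). IGFBP4 read 10.94 and 10.98 after knockdown and 10.90 and 10.86 in controls (0.08, 95% interval -0.11 to 0.27, adjusted p = 0.485). IGFBP6 read 9.41 and 9.35 after knockdown and 9.37 and 9.24 in controls, which overlap (0.07, 95% interval -0.12 to 0.27, adjusted p = 0.537).

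**Figure D2:**
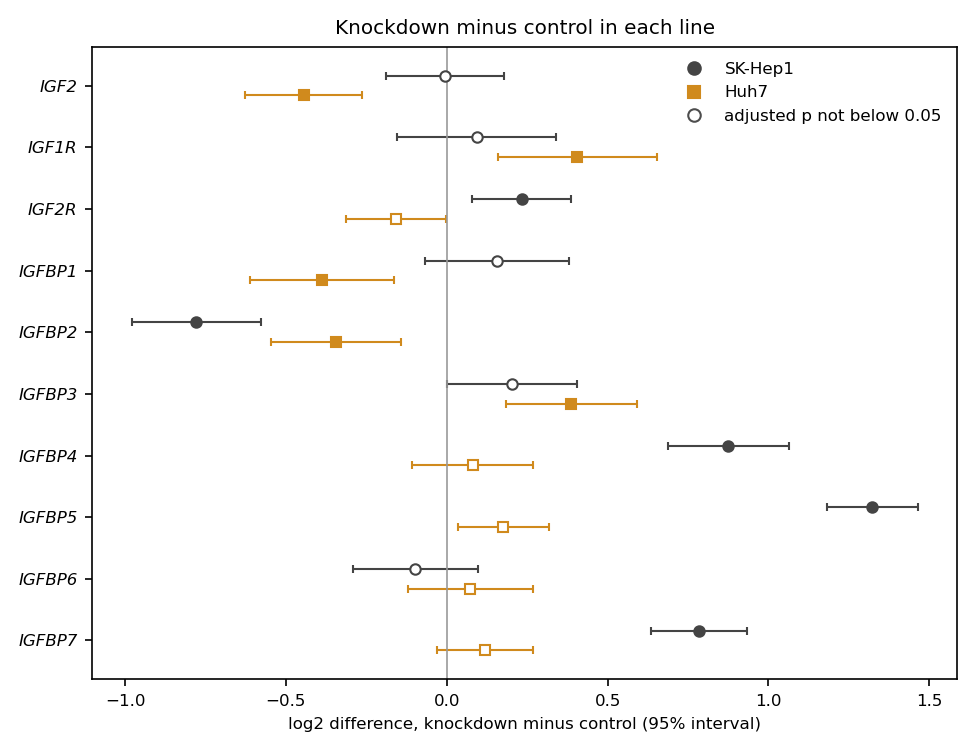
Log2 difference, knockdown minus control, of the 10 genes in SK-Hep1 (dark circles) and Huh7 (orange squares) with its 95% interval from limma, with open symbols where the adjusted p was not below 0.05. IGFBP5, at 1.32 in SK-Hep1 and 0.18 in Huh7, has the widest gap between the lines, and IGFBP2 is on the lower side in both. IGF1R was tested only because of the Huh7 knockdown group, so its filled symbol in Huh7 does not show a rise.

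To test whether the lines differed, the Huh7 difference was subtracted from that of SK-Hep1. This contrast passed for 7 of the 10 genes, 6 with a higher value in SK-Hep1 (15.2% of all genes) and 1 with a lower one (16.1%), against 31.3% of all genes in either direction. IGFBP5 differed by 1.15 ± 0.0902 (adjusted p = 1.94e-05), IGFBP4 by 0.80 ± 0.12 (adjusted p = 0.000968) and IGFBP7 by 0.66 ± 0.0951 (adjusted p = 0.000723). These 3 passed under every setting tried. IGFBP1 differed by 0.54 (adjusted p = 0.016), IGF2 by 0.44 (adjusted p = 0.0169) and IGF2R by 0.39 (adjusted p = 0.0135). IGFBP2 fell more in SK-Hep1, by -0.43 (adjusted p = 0.0265). The last 4 calls were each lost without some single array, and without Huh7 control replicate 2 or Huh7 knockdown replicate 3 only 4 of the 7 remained. No difference between the lines was detected for IGF1R (-0.31, 95% interval -0.66 to 0.04), IGFBP3 (-0.18, -0.47 to 0.10) or IGFBP6 (-0.17, -0.45 to 0.11).

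**Figure D3:**
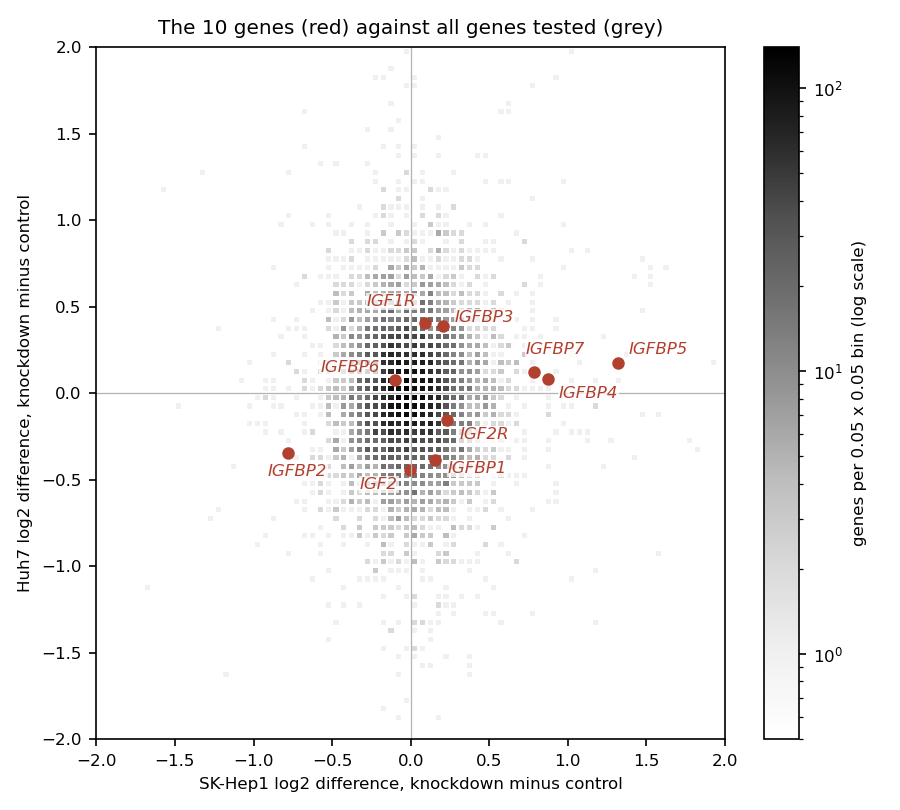
Log2 difference, knockdown minus control, in SK-Hep1 (horizontal axis) and Huh7 (vertical axis) for the 10 genes in red over the 12411 genes tested, shown in grey as genes per bin of 0.05 by 0.05 on a log colour scale, with 10 genes beyond 2 on either axis not drawn. IGFBP5, IGFBP4 and IGFBP7 lie together far to the right near the zero of Huh7, IGFBP2 lies at the lower left, and the other 6 genes lie within the main cloud.

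Genes whose deposited values ran most like those of a given gene over the 8 arrays were taken by Pearson's r, as a description over arrays that share their 4 groups. For IGFBP5 they were GCNT3, a mucin-type glycan enzyme gene (r = 0.997), P3H2, a collagen prolyl hydroxylase gene (0.996), and CSF3, which encodes granulocyte colony-stimulating factor (0.994). For IGFBP4 they were SERPINA9 (0.988), GCNT3 (0.987) and CSF3 (0.985). For IGFBP7 they were the ribosomal protein gene RPL23A (0.992), the small nucleolar RNA gene SNORD14D (0.992) and IGFBP5 itself (0.992). For IGF2 they were TMEM106B (0.985), AIRE (0.985) and TCAF2 (0.985), of which TMEM106B was at -0.63 and TCAF2 at -0.49 in Huh7.

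The stretch of 250 bases before the annotated start is given for IGFBP5 and IGFBP4, which rose together in SK-Hep1, for IGFBP3, which rose in Huh7, and for IGF2R. Sequences are from RefSeq (GRCh38.p14), which had 9 such windows for 7 of the 10 genes. No window was available for IGF2, IGFBP1 or IGFBP7. Capitals mark matches, on either strand, to 6 motifs. TATAAA and the variant TATATA are forms of the TATA box. The GC box was searched as GGGCGG and the E-box as CACGTG. The AP-1 site was searched as TGACTCA, and the core of the insulin response element as CAAAACA.
IGFBP5 (GRCh38.p14, chr2:216695550-216695799, minus strand): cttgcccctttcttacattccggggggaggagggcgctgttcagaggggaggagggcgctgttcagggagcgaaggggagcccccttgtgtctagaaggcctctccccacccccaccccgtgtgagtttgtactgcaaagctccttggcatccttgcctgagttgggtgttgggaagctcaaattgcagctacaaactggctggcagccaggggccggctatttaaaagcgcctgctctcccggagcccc
IGFBP4 (GRCh38.p14, chr17:40443200-40443449, plus strand): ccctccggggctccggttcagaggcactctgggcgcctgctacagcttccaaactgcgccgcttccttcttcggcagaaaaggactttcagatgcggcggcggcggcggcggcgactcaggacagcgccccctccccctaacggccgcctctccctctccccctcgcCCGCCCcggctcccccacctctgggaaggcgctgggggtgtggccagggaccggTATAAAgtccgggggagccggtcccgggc
IGFBP3 (GRCh38.p14, chr7:45921273-45921522, minus strand): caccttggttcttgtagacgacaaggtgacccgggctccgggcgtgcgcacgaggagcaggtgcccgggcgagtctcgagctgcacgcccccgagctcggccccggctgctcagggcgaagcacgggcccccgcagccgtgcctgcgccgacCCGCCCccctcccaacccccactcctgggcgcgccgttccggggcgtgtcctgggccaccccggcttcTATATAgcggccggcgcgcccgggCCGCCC
IGF2R (GRCh38.p14, chr6:159968832-159969081, plus strand): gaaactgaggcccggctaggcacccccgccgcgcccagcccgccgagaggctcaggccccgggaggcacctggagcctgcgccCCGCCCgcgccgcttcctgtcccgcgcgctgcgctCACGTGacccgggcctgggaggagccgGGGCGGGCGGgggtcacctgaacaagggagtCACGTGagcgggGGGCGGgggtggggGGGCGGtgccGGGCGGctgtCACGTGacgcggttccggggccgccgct

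IGFBP4 held TATAAA with its first base at position -29 from the start, a motif present in 10.7% of the 35116 windows of this length. IGFBP3 held TATATA at -30 (3.73% of windows). IGFBP5 held no exact match to the 6 motifs. Only these exact letters were searched, so another form of the TATA box in its window would have been missed. The stretch tatttaaaa near the end of the IGFBP5 window was not scored for this reason. IGF2R held 3 copies of CACGTG, at -132, -74 and -28, where 6.34% of windows held at least 1 and 0.0797% held 3 or more, and it held 6 copies of GGGCGG, of which the pair at -105 and -101 overlap. GGGCGG was in 42.6% of all windows. The AP-1 and insulin response motifs were in 4.2% and 4.3% of windows and in 0 of the 9 windows of these genes. IGFBP1, IGF2 and IGFBP7 had no window, so their promoters were not searched for any motif. The IGFBP4 window had 24 CpG and the IGFBP5 window 8, against a median of 11 over all windows, so the genes that rose together in SK-Hep1 differ in this respect. These matches describe letters in the windows only.

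Beyond the 10 genes, 147 genes in 9 lists around the IGF pathway were followed. Of these, 141 were on the array and 102 were bright enough to be tested. In SK-Hep1 9 rose and 9 fell (17.6%, against 16.8% of all genes), and in Huh7 16 rose and 24 fell (39.2%, against 38.9%), so as a whole the pathway genes were called at the rate of all genes. The SK-Hep1 count was 11 without control replicate 1, against 18 with all arrays, and the Huh7 count was 24 to 27 without any 1 Huh7 array, against 40.

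The counts of each list compare with 8.31% of all genes higher and 8.54% lower in SK-Hep1. In Huh7 these shares were 19.4% and 19.5%, and no list was tested as a set. Of the ligand and carrier list only VTN was bright enough of 9 genes. VTN encodes vitronectin, which binds IGF2 in the matrix. VTN rose by 0.79 in Huh7 (adjusted p = 7.23e-05) and by 0.28 in SK-Hep1 (adjusted p = 0.0444). VTN read 9.97 and 9.78 in Huh7 knockdown cells, against 9.09 in each control, and its SK-Hep1 call was lost without any 1 of 5 arrays (adjusted p up to 0.152). IGF1 and IGFALS encode the other IGF and the acid-labile subunit of the serum complex. All their probes had means below the threshold and were not tested. The brighter IGF1 probe read 7.008 and 7.04 on the Huh7 knockdown arrays, against 6.77 and 6.94 on the controls. The dimmer one read 6.85 and 6.79, against 6.62 and 6.46. On both IGF1 probes the SK-Hep1 groups overlapped, and the IGFALS probe overlapped in both lines.

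Of the receptor and adaptor genes 2 of 13 rose and 0 fell in SK-Hep1, while 1 rose and 5 fell in Huh7. The phosphatase gene PTPN1, whose product dephosphorylates the insulin receptor, rose in SK-Hep1 (0.50, adjusted p = 0.0016). PTPN11, which encodes the phosphatase SHP2, rose by 0.33 in Huh7 (adjusted p = 0.0181) and by 0.31 in SK-Hep1 (adjusted p = 0.0446). In Huh7 the adaptor genes SHC1 (-0.42, adjusted p = 0.00264), GRB14 (-0.24, adjusted p = 0.0383) and IRS1 (-0.21, adjusted p = 0.0253) fell. The second kept probes of SHC1 (-0.17, adjusted p = 0.191) and GRB14 (-0.11, adjusted p = 0.349) did not pass in Huh7 among all kept probes. The calls of PTPN11 in both lines and of GRB14 and IRS1 in Huh7 were lost without any 1 Huh7 array (adjusted p = 0.0619 to 0.162). PTPN11 in SK-Hep1 was at 0.16 without control replicate 1 (adjusted p = 0.24), and its call was also lost with array weights or the line alone. IRS2, the main insulin receptor substrate of the liver, gave no call in either line (-0.04 in each). The INSR probe had a mean just below the threshold (6.997) and was not tested.

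Of the genes of IGFBP proteases and their inhibitors 3 of 8 rose and 2 fell in SK-Hep1, while 1 rose and 1 fell in Huh7. The differences between the lines passed for MMP9, STC1, HTRA1, STC2 and PAPPA. MMP9, a matrix protease gene, read 8.45 and 8.04 in SK-Hep1 knockdown cells, against 6.87 and 6.95 in controls (1.33 ± 0.122, adjusted p = 0.00011). Its controls were below the threshold, so against the threshold itself MMP9 was at least 2.37-fold higher on the deposited scale. PAPPA encodes pappalysin-1, which cleaves IGFBP4 and IGFBP5, and the stanniocalcins STC1 and STC2 inhibit it. STC1 rose by 0.90 ± 0.107 in SK-Hep1 (adjusted p = 0.000512), with 9.06 and 9.44 against 8.36 and 8.34, and STC2 fell by 0.55 ± 0.0753 (adjusted p = 0.00116), with 9.62 and 9.80 against 10.29 and 10.23. PAPPA gave no call in SK-Hep1 (-0.15, adjusted p = 0.346) and rose in Huh7 (0.39 ± 0.102, adjusted p = 0.0121), a call lost without control replicate 2 or knockdown replicate 4 of Huh7 (adjusted p = 0.0822 and 0.0922). HTRA1, a serine protease gene whose product carries an IGFBP-like domain and cleaves IGFBP5, fell in SK-Hep1 by 0.89 ± 0.1 (adjusted p = 0.000378), with 7.18 and 6.87 against 7.84 and 7.999.

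Among other genes with an IGFBP-like domain, 1 of 8 rose and 1 fell in each line. ESM1, which encodes the endothelial proteoglycan endocan, rose in SK-Hep1 (0.83, adjusted p = 0.000349), with 7.95 and 7.98 against 7.21 and 7.07. CCN1, a matricellular integrin ligand gene, fell in SK-Hep1 (-0.35, adjusted p = 0.0256) and rose in Huh7 (0.57, adjusted p = 0.000928). KAZALD1 fell in Huh7 (-0.25, adjusted p = 0.0449), a call lost without any 1 Huh7 array (adjusted p up to 0.259). The CCN1 call in SK-Hep1 was lost without either control or knockdown replicate 11 (adjusted p = 0.0831 to 0.11), and its value was -0.21 without the last of these.

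Of the genes around the IGF2 locus, its mRNA binding and its transcription, 1 of 17 rose and 1 fell in SK-Hep1, while 3 rose and 7 fell in Huh7. Besides H19, those lower in Huh7 included LIN28A, which encodes an RNA-binding protein of embryonic cells (-0.66, adjusted p = 0.000147), and PLAG1, which encodes a transcription factor that activates IGF2 promoters (-0.59, adjusted p = 0.00026). PLAG1 read 7.89 on each Huh7 knockdown array, against 8.47 and 8.48 on the controls. PEG10, a paternally expressed imprinted gene, fell on its brightest probe, by 0.54 in Huh7 (adjusted p = 0.00324) and by 0.69 in SK-Hep1 (adjusted p = 0.00257), and its second probe gave -0.48 in Huh7 and -0.30 in SK-Hep1. With the second PEG10 probe in its place neither line passed (adjusted p = 0.172 in Huh7 and 0.459 in SK-Hep1).

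Of the PI3K, AKT, mTOR and FOXO genes 0 of 24 rose and 1 fell in SK-Hep1, RPS6KB1, which encodes the S6 kinase (-0.43, adjusted p = 0.0042). In Huh7 2 rose and 3 fell, those lower being the mTOR inhibitor gene DEPTOR (-0.53, adjusted p = 0.00134), FOXO4 (-0.51, adjusted p = 0.000891) and EIF4EBP1, a translation repressor gene (-0.39, adjusted p = 0.00458). The FOXO target list was chosen as genes linked, like IGFBP1, to FOXO factors. Control of each of them by insulin or FOXO in these cells was not tested. In SK-Hep1 0 of its 14 tested genes were higher and 3 lower, against 8.31% and 8.54% of all genes. In Huh7 4 were higher and 6 lower, against 19.4% and 19.5% of all genes. The Huh7 median was -0.30, and that of all genes 0.00061. KLF15, which encodes a fasting-induced transcription factor, fell in Huh7 by 1.44 ± 0.082 (adjusted p = 1.42e-06), with 6.99 and 7.10 on the knockdown arrays against 8.52 and 8.45 on the controls. PPARGC1A, a coactivator gene of gluconeogenesis, fell by 0.95 (adjusted p = 6.02e-06) and the repressor gene BCL6 by 0.96 (adjusted p = 0.0021), while the pseudokinase gene TRIB1 rose by 0.92 (adjusted p = 0.000137).

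For the mannose-6-phosphate sorting genes, which act with IGF2R in delivery to lysosomes, 1 of 11 rose and 0 fell in each line. GNPTAB, which encodes the enzyme that makes the sorting tag, rose in SK-Hep1 (0.46, adjusted p = 0.00562), and M6PR, the smaller sorting receptor gene, rose in Huh7 (0.25, adjusted p = 0.0193). Of the growth hormone axis 0 of 6 rose and 1 fell in SK-Hep1, while 2 rose and 1 fell in Huh7. SOCS2, a feedback inhibitor gene of growth hormone signalling, changed in opposite directions. SOCS2 read 9.93 and 9.33 in SK-Hep1 knockdown cells, against 10.44 and 10.42 in controls (-0.80, adjusted p = 0.00556), and 10.51 and 10.46 on the Huh7 knockdown arrays, against 9.53 and 9.47 on the controls (0.99, adjusted p = 0.000616). STAT5B fell (-0.47, adjusted p = 0.000612) and STAT5A rose (0.19, adjusted p = 0.0433) in Huh7. The STAT5A call was lost without any 1 of 6 arrays (adjusted p up to 0.215), the M6PR call without any 1 Huh7 array (up to 0.0974), and the SOCS2 call in SK-Hep1 without its control replicate 1 (0.0502). SOCS2 in SK-Hep1 was at -0.50 without knockdown replicate 12, with the call kept.

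**Figure D4:**
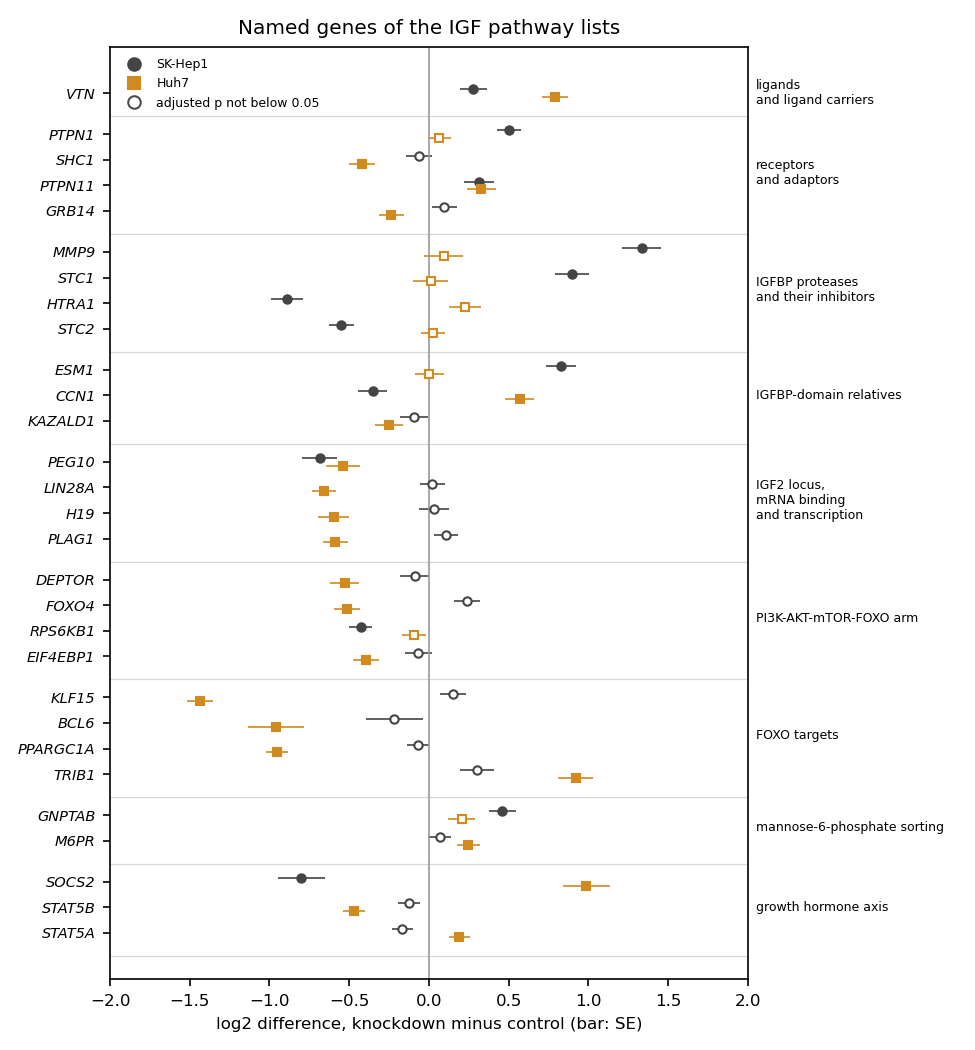
Log2 difference, knockdown minus control, with its SE for the named genes of the 9 pathway lists in SK-Hep1 (dark circles) and Huh7 (orange squares), with open symbols where the adjusted p was not below 0.05. The protease and inhibitor genes MMP9, STC1, HTRA1 and STC2 lie away from zero in SK-Hep1, KLF15 is at -1.44 in Huh7, and SOCS2 and CCN1 lie on opposite sides in the 2 lines.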

How the data were processed

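The values are the log2 signals of 8 Illumina BeadChip arrays in the processed table that the authors deposited. Per the submitters' processing notes, GenomeStudio 2011.1 had been run. How values were normalized and background treated is not stated by the labels or file headers. Array medians lay between 6.931 and 6.934, so no further normalization was applied. The deposited signals before normalization were left out, as their 16 value columns (8 of signals) match no sample label. Background correction and detection p-values, which had been planned, could therefore not be applied.

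Probes were named through the platform annotation (30110 with 1 symbol, 8 with several, 17201 with none), and 30071 matched a RefSeq gene. Background came from 637 probes for beta-defensins, keratin-associated proteins and receptors for smell, taste and pheromones. Probes with a mean above their 95th percentile, 7.003, were kept (21440, 45.3%), giving 12411 genes by the brightest probe.

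limma 3.58.1 in R 4.3.3 (lmFit, eBayes) was fitted to the 4 groups, leaving 4 degrees of freedom, two-sided, with Benjamini-Hochberg adjustment over all genes, and again over all kept probes. Where both arrays of a group were below the threshold, the fold was taken against it, on the deposited scale, and given as "at least". The fit was tested on simulated data. Of the 9 lists, the text names up to 4 called genes each with the largest difference, and 8 genes (IGF1, IGFALS, INSR, IRS1, IRS2, PAPPA, STC2, H19) whatever their value. The MIR483 and INS-IGF2 probes, and the markers named with values, lie outside that rule and were chosen after their values were seen. The members, lists and tests were chosen with earlier results of these data known.

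Alternatives were other filters, probe choices, normalizations, fits and weights, and leaving out each array. Precision is limited by the 2 arrays per group.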

Additional observations from a re-analysis of the deposited data

Results flagged for a closer look

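Each value here is the log2 difference, knockdown minus control, of SK-Hep1 less that of Huh7, and each passed limma's test of the difference between the lines. Among the IGF genes they were IGF2 (0.44), IGF2R (0.39), IGFBP1 (0.54), IGFBP4 (0.80), IGFBP5 (1.15) and IGFBP7 (0.66), higher in SK-Hep1, and IGFBP2 (-0.43), lower. SMARCB1 itself differed by 0.48.

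Among the pathway genes a higher value in SK-Hep1 was found for PTPN1 (0.44), SHC1 (0.36), GRB14 (0.33) and IRS1 (0.35) of the receptors and adaptors, for MMP9 (1.24), STC1 (0.89) and ESM1 (0.83) of the proteases, inhibitors and domain relatives, and for LIN28A (0.68), H19 (0.63) and PLAG1 (0.69) around the IGF2 locus. The same held for DEPTOR (0.44), FOXO4 (0.75), KLF15 (1.59), BCL6 (0.74), PPARGC1A (0.88) and STAT5B (0.34).

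A lower value in SK-Hep1 was found for VTN (-0.51), HTRA1 (-1.11), STC2 (-0.58), PAPPA (-0.54), CCN1 (-0.92), RPS6KB1 (-0.34), TRIB1 (-0.62), SOCS2 (-1.79) and STAT5A (-0.36). Some of these calls were lost under other settings, that of GRB14 in 10 of 17 (0.18 with the mean of its probes, adjusted p = 0.235), BCL6 in 8 of 17 (0.40 without SK-Hep1 knockdown replicate 12, adjusted p = 0.0658), SHC1 and RPS6KB1 in 7 of 17 each, DEPTOR in 4 of 16, STAT5B in 4 of 17, and IRS1, PAPPA and STAT5A in 3 of 17 each. Among the IGF genes those of IGFBP2 (5 of 17), IGF2 (4 of 16), IGF2R and IGFBP1 (2 of 17 each) were lost, and that of SMARCB1 in 7 of 17. Groups of 2 arrays are too small for a test of single outlying arrays.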

How the results depend on the processing

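Of 524 comparisons of the IGF genes with an alternative setting, 478 kept direction and side of the threshold, 31 lost the call, 12 gained one and 3 turned direction. For SMARCB1 and the named pathway genes 1100 of 1227 kept both, 120 lost the call, 1 gained one and 6 turned. When 1 array was left out, the lone array was assumed to vary like the other groups. The IGF genes called then numbered 4 to 6 in SK-Hep1, 2 to 6 in Huh7 and 4 to 8 for the difference between the lines. Their probes called numbered 5 to 8, 3 to 7 and 4 to 9, and the pathway genes called 11 to 22, 24 to 50 and 26 to 43, in the same order. The SMARCB1 difference between the lines ran from 0.30 to 0.67, and its call was kept only without SK-Hep1 knockdown replicate 11 (adjusted p = 0.0588 to 0.119 without any other array). Directions turned only for values that gave no call, and the values without 1 array ran in SK-Hep1 from -0.069 to 0.059 for IGF2 (above 0 without control replicate 2), -0.055 to 0.24 for IGF1R (below 0 without knockdown replicate 11), -0.217 to 0.0226 for IGFBP6 and -0.31 to 0.0134 for PAPPA (above 0 without knockdown replicate 12), -0.10 to 0.165 for H19 (-0.04 without control replicate 1, lowest without knockdown replicate 11) and -0.166 to 0.0947 for IRS2 (0.0018 without control replicate 2, highest without knockdown replicate 11). In Huh7 they ran from -0.0951 to 0.0242 for IRS2 (above 0 without control replicate 2). The causes were not tested. IGF2 and IGF1R were not tested with the stricter filter at the 99th percentile. The background probes without pseudogenes were an alternative chosen after seeing the data. No paired analysis was possible because the groups compared share no replicate numbers. The table before normalization was not run, as its columns match no sample, and arrays of 1 line alone give no difference between lines. With 2 arrays per group and an unstated adjustment between lines, small differences and dim probes are the least certain.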
